A study of Mus musculus with 6 samples.

Results

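Umod, Egf and Kl are 3 kidney genes that mark the distal nephron, and this account follows their transcripts through the cell types of kidneys from sham-operated and DOCA-salt mice. They were taken by symbol from the feature table, where they are 3 of 33696 features, and their unique molecular identifiers (UMIs, which count captured RNA molecules) were summed per mouse and per class of cells. The 6 mice were male C57BL/6, 8 to 10 weeks old at the start, with 3 mice per group and 1 single-cell RNA library per mouse. DOCA-salt mice lost the left kidney, received a subcutaneous pellet of 50 mg DOCA (deoxycorticosterone acetate, a mineralocorticoid) 1 week later, drank 1% NaCl and were killed on day 21. Sham mice had sham surgery, normal water and no pellet, so loss of a kidney, the hormone and the salt cannot be told apart. No group carried an engineered allele.

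Umod encodes uromodulin, the most abundant protein of normal urine, which is made in the thick ascending limb (TAL), carried through the endoplasmic reticulum in large amounts and shed from the apical membrane. Egf encodes the membrane-bound precursor of epidermal growth factor, which acts on the receptor Egfr and is known in the distal convoluted tubule (DCT) for opening the magnesium channel Trpm6. Kl encodes Klotho, the co-receptor through which the bone hormone Fgf23 lowers phosphate reabsorption and calcitriol synthesis, and which is known for its high level in the DCT and connecting tubule (CNT). Lower uromodulin, urinary EGF and Klotho are known to accompany chronic kidney disease.

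In GRCm39, Umod (ENSMUSG00000030963) lies on the minus strand at chr7:119061934-119078505 with 11 exons in its canonical transcript. Egf (ENSMUSG00000028017) lies on the minus strand at chr3:129470410-129549093 with 24 exons, and Kl (ENSMUSG00000058488) lies on the plus strand at chr5:150876072-150917284 with 5 exons. The GENCODE annotation places Gm44588 opposite to Umod, and Gm55027 on the strand of Egf with Gm42697 and Gm42650 opposite to it, so reads from the overlap of Egf and Gm55027 cannot be assigned by strand alone. No annotated gene overlaps Kl. The libraries tag the 3′ end of transcripts and do not separate isoforms, such as the secreted form of Klotho. The 250 bases before the start of each canonical transcript are shown 5′ to 3′ on the gene's strand because the 3 genes shared a nephron region while their levels moved differently. Capitals mark 3 searched motifs, on either strand: GTTAAT (the core of hepatocyte nuclear factor 1 sites), CCAAT, and AGAACA (the hexamer of steroid receptor elements, which reads TGTTCT on the other strand).
Umod chr7:119078484-119078733: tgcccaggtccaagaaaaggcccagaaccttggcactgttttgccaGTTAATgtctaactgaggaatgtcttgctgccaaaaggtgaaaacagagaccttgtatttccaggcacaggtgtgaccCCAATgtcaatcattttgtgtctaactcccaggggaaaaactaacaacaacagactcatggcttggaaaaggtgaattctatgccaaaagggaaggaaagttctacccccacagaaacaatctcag
Egf chr3:129549094-129549343: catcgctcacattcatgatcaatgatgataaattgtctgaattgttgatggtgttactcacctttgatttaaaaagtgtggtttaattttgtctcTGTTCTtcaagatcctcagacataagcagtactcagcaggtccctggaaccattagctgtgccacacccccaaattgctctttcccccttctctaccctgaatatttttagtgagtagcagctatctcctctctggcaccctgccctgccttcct
Kl chr5:150875822-150876071: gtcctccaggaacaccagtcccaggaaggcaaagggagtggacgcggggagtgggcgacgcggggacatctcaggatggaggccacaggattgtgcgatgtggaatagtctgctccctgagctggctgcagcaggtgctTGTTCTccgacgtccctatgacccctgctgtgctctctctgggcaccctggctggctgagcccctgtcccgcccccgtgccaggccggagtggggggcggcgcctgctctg

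The Kl window was GC-rich, at 66.8% against 45.2% for Umod and 43.6% for Egf, while the median over 21770 promoters of the same length was 53.2%. GTTAAT stood in the Umod window from 204 to 199 bases before the start, and 6.28% of all promoters held it on either strand. CCAAT stood in the Umod window at 126 to 122 bases before the start and occurred in 36.5% of promoters. The steroid receptor hexamer was found on the opposite strand in the Egf window, at 155 to 150 bases, and in the Kl window, at 111 to 106 bases, and 14.3% of promoters held it. The fourth motif searched, TATAAA, was in none of the 3 windows and in 11.9% of promoters. These matches describe letters and are not shown to be sites of any factor.

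After filtering, 55630 cells remained, with 7701 to 9933 cells, 65101025 to 103296040 UMIs and a median of 4787 to 9148 UMIs per cell in each mouse. Before filtering, the barcodes of a mouse held 93172739 to 137819127 UMIs. Clusters were named from fixed markers that did not include the 3 genes, which were also kept out of clustering, and a class called TAL below is a TAL-like class and so on. The TAL class held 529 to 905 cells per mouse, the DCT class 159 to 372, the CNT class 85 to 212 and the proximal tubule (PT) class 4686 to 6568. The TAL and DCT classes carried their defining transporters: Slc12a1, the apical sodium-potassium-chloride cotransporter, stood at 6983 to 8798 CPM (UMIs of a gene per 1000000 UMIs of the class) in sham TAL cells, and Slc12a3, the thiazide-sensitive cotransporter, at 7261 ± 736 CPM (SD, n = 3) in sham DCT cells. Between any pair of mice, 15 to 36 barcodes were shared, at most 0.407% of the smaller set. Sham 2 had the lowest Umod background of all mice, and 1 unnamed cluster came almost wholly from DOCA-salt 2. CPM of a class describes the RNA of its cells, whereas over all cells of a mouse, fewer cells of a type and less RNA per cell cannot be told apart.

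All 3 genes had their highest CPM in classes of the distal nephron, each with its own order of cell types. Umod averaged 15050 ± 2236 CPM (SD over 6 mice) in TAL cells, 3274 ± 952 CPM in DCT cells and 342 ± 91.0 CPM in thin limb cells. Both steps down held in 6 of 6 mice (2.24 and 3.26 on the log2 scale of CPM + 1, exact two-sided sign-flip p = 0.031 each, the smallest that 6 mice allow, 0.075 after adjustment over 12 such steps). Below the thin limb, intercalated cells at 287 CPM and cycling cells at 224 CPM did not separate from their neighbours beyond the spread between mice.

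Egf had the same leading classes, with 4995 ± 1211 CPM in TAL cells and 1484 ± 699 CPM in DCT cells, again lower in DCT cells in 6 of 6 mice (by 1.85 on the log2 scale, exact p = 0.031, adjusted p = 0.075). Every other class averaged 49.6 CPM or less, and these low levels in T or NK, cycling and B cells did not differ beyond their spread.

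Kl led in CNT cells at 1050 ± 241 CPM, followed by DCT cells at 875 ± 93.0 CPM. CNT cells were above DCT cells in 5 of 6 mice, which the spread did not separate (0.24 on the log2 scale, exact p = 0.156, adjusted p = 0.313). Principal cells followed at 217 ± 158 CPM and PT cells at 187 ± 37.8 CPM, a step that split by group. In sham mice principal cells averaged 75.3 CPM, below PT cells at 209 CPM, TAL cells at 180 CPM, cycling cells at 159 CPM and intercalated cells at 139 CPM, and in DOCA-salt mice they averaged 359 CPM against 166 CPM in PT cells. PT cells, which made up 63.9 ± 2.31% of sham and 53.3 ± 4.14% of DOCA-salt cells, held 65.6 ± 4.86% of all Kl UMIs in sham mice and 48.6 ± 3.49% in DOCA-salt mice (SD, n = 3). Unnamed cells held 0.95 ± 0.33% and 8.36 ± 4.08%, and a part of these is the cluster of DOCA-salt 2. TAL cells held 85.6 ± 1.79% of sham Umod UMIs and 85.3% of sham Egf UMIs.

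**Figure D1:**
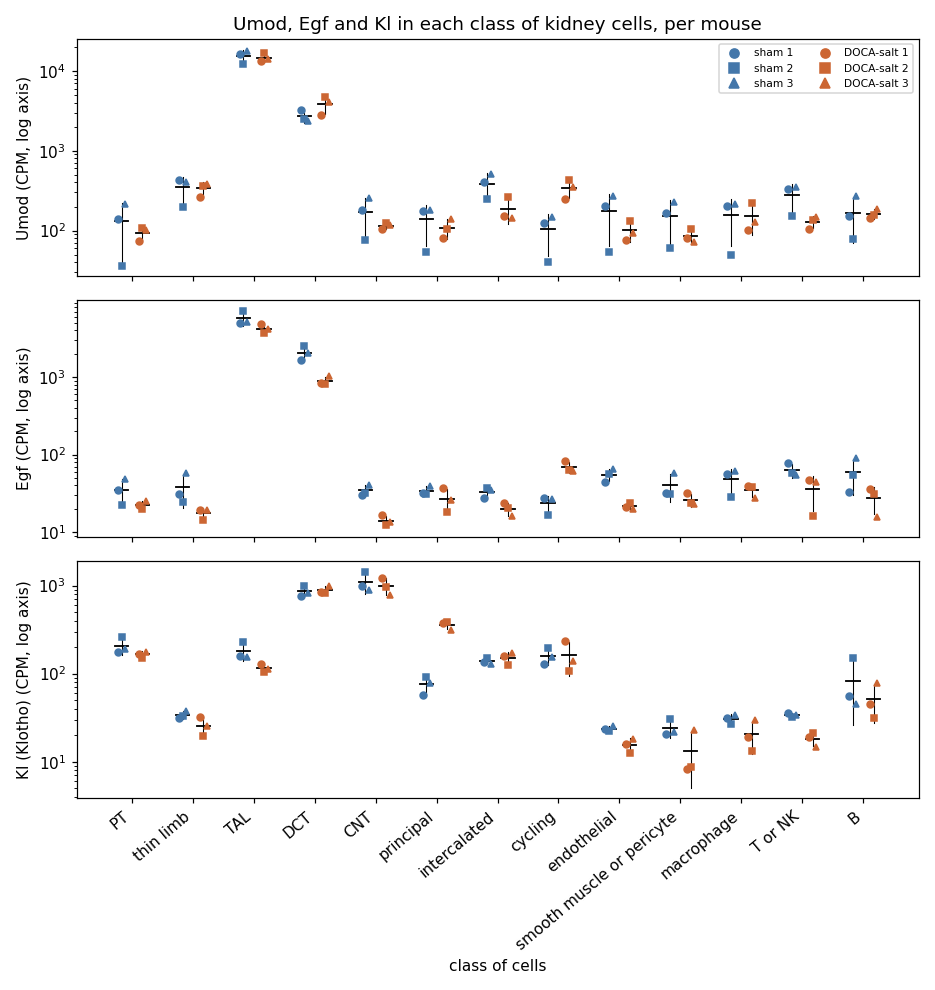
Level of Umod, Egf and Kl in CPM (log axis) in each of 13 classes of cells, with 1 point per mouse, a bar at the group mean and a line of 1 SD to each side (3 sham mice in blue, 3 DOCA-salt mice in orange). Umod and Egf stand far above the other classes in TAL and DCT cells, Kl in CNT and DCT cells, and the lowest Umod points in PT, CNT, endothelial and macrophage cells belong to sham 2.

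Over the means of the 13 classes, the 5 genes most like Umod in log2(CPM + 1) were Egf (Pearson r = 0.963), Gpx6 (0.960), Dusp15 (0.939), Ppp1r1a (0.938), a phosphatase inhibitor used here as a TAL marker, and Esrrb (0.937), a nuclear receptor. The list for Egf was led by Gpx6 (0.983) and Umod (0.963), followed by Dusp15 (0.949), Wfdc15b (0.920) and Nrxn3 (0.911). The genes most like Kl were Vdr (0.928), the calcitriol receptor, Mccc1 (0.902), Klhl3 (0.901), which targets WNK kinases for degradation, Emx1 (0.901) and Esrrg (0.898). Vdr, like Kl, was highest in CNT cells, at 246 CPM against 181 CPM in DCT and 66.8 CPM in TAL cells. These correlations describe 13 class means from the same libraries, and the classes differ in depth.

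Within the TAL, the medullary and cortical parts are known for different claudins, Cldn10 for sodium and Cldn16 for calcium and magnesium. Egf was 6423 ± 1382 CPM in TAL cells with Cldn16 and no Cldn10 UMIs and 3976 ± 949 CPM in cells with Cldn10 and no Cldn16 UMIs. It was higher in the Cldn16 cells in 6 of 6 mice (0.70 ± 0.12 on the log2 scale, SD, exact p = 0.031, adjusted over 6 comparisons 0.0625). Umod was nearly level between the same cells, with a log2 difference of 0.084 that was positive in 5 of 6 mice (exact p = 0.0938, adjusted 0.141). Kl, at 165 against 129 CPM, was higher in the Cldn16 cells in 6 of 6 mice (0.37, exact p = 0.031, adjusted 0.0625).

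Within the DCT, Slc8a1, the sodium-calcium exchanger of the late DCT and CNT, was used to divide the 1667 DCT cells at its median share of a cell's UMIs, 0.0752%. The 833 cells above that point are a range and not a type, since 123 cells lay within 20% of it. Kl was 1280 ± 197 CPM above it and 419 ± 35.1 CPM at or below it, higher in 6 of 6 mice (1.6 on the log2 scale, exact p = 0.031, adjusted 0.0625). Umod and Egf showed no such split, with log2 differences of -0.14 and -0.079 that were positive in 3 and 2 of 6 mice.

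For Umod, the first question was whether the uromodulin transcript of its main source changed in DOCA-salt kidneys, and in TAL cells it did not pass the test. Sham mice had 16341, 12149 and 17879 CPM and DOCA-salt mice had 13181, 16640 and 14111 CPM. The groups overlapped, with the lowest value in sham 2. The fitted log2 fold change was -0.09 (SE 0.20, approximate 95% interval -0.47 to 0.29, edgeR quasi-likelihood test, adjusted p = 0.911), in a comparison in which 185 of 12170 genes tested (1.52%) were called, 85 higher and 100 lower in DOCA-salt mice. Nearly every TAL cell held the transcript: after thinning cells to 1000 UMIs, 96.9 ± 0.78% of sham and 97.2 ± 0.91% of DOCA-salt TAL cells had a Umod UMI (exact permutation p = 0.6, adjusted over 6 comparisons 0.6, where 3 against 3 mice cannot go below 0.1). In endothelial cells the same share was 16.2 and 9.52%, at median depths of 3736 and 6214 UMIs against 6388 to 9993 in TAL cells.

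This level depended on which TAL cells were read. The median TAL cell had 32.2 to 34.9% mitochondrial UMIs, under the limit of 50%. Among the TAL cells with at most 20%, which were 74 to 110 cells per mouse, Umod was 8123, 8211 and 6878 CPM in sham mice and 11919, 12697 and 10130 CPM in DOCA-salt mice. These groups did not overlap and DOCA-salt mice were higher, by 0.62 on the log2 scale (edgeR, adjusted p = 0.0782). These low-mitochondrial cells held less Umod than the class as a whole in all 6 mice.

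In DCT cells, Umod was 3213, 2520 and 2322 CPM in sham mice and 2764, 4725 and 4101 CPM in DOCA-salt mice. DOCA-salt 2 and 3 exceeded every sham mouse and DOCA-salt 1 did not. The fitted log2 fold change was 0.38 (SE 0.21, 95% interval -0.03 to 0.79, edgeR, adjusted p = 0.343), where 766 of 10055 genes tested (7.62%) were called, 464 higher and 302 lower, or 775 higher and 190 lower when libraries were scaled by size alone. It was 0.17 without DOCA-salt 2, 0.59 without DOCA-salt 1 and 0.74 among DCT cells with at most 20% mitochondrial UMIs (edgeR, adjusted p = 0.0895). DCT and CNT cells pooled gave 0.95 (edgeR, adjusted p = 0.0298), but the part of CNT cells, low in Umod, in that pool differed between the groups. The log2 fold change of Umod was 0.18 in DCT cells at or below the Slc8a1 median and 0.56 above it, neither past the threshold. Beside these Umod values, Slc12a1 in DCT cells was 98.7 to 144 CPM in sham and 73.7 to 93.4 CPM in DOCA-salt mice, and the 8 TAL markers summed to 886 to 1308 and 858 to 967 CPM. By the test 2 of these markers were lower, and the 1 called higher, Cldn19, could enter it only through the DOCA-salt group. None of the 8 was at 0 in DOCA-salt mice, and up to 3 were in a sham mouse.

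The change of Umod in DCT cells minus that in TAL cells was 0.43 (SE 0.13, edgeR interaction test with mouse as a block, adjusted p = 0.0302), where 911 of 11952 genes (7.62%) were called. This call was lost when sham 3 (0.19), DOCA-salt 2 or DOCA-salt 3 was left out, and the lowest and highest values without 1 mouse were 0.19 and 0.60. Among cells with at most 20% mitochondrial UMIs, the changes were 0.74 in DCT and 0.62 in TAL cells, whose difference was not tested. DCT cells held 3.66% of all Umod UMIs in sham and 10.5% in DOCA-salt mice, TAL cells 85.6 ± 1.79% and 76.0 ± 5.63%, and unnamed cells 0.29 ± 0.11% and 3.42 ± 4.98% (SD, n = 3). TAL cells made up 8.07 ± 1.13% of sham and 6.90 ± 1.23% of DOCA-salt cells (exact permutation p = 0.2). DCT cells made up 2.61 ± 0.98% and 3.32 ± 0.29%, sizes that are not compared because genes that define the class differed between groups.

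**Figure D2:**
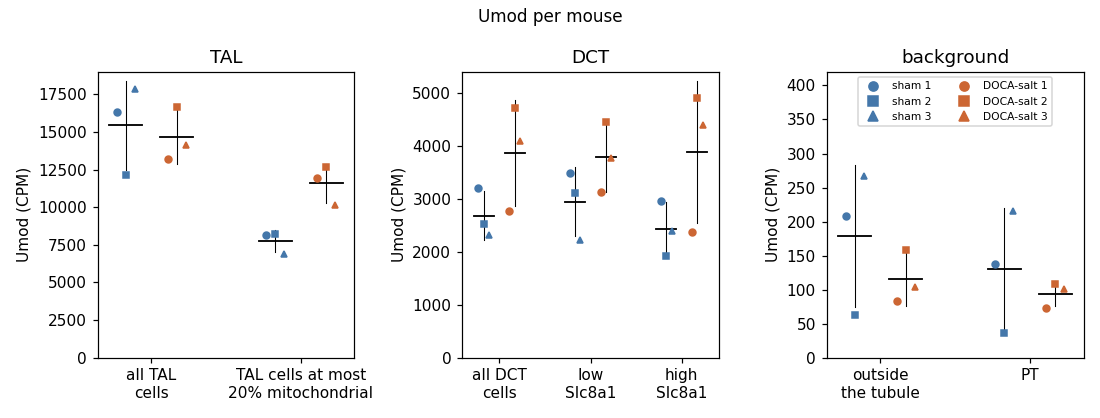
Umod in CPM per mouse (points), with the group mean and 1 SD, in all TAL cells and in those with at most 20% mitochondrial UMIs, in DCT cells and their parts by Slc8a1, and in cells outside the tubule and PT cells as background, on axes that start at 0. The groups overlap in all TAL cells and separate among the low-mitochondrial TAL cells, where DOCA-salt mice are higher.

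Outside the tubule, in endothelial, stromal and immune cells that are not known to make uromodulin, Umod stood at 208, 63.2 and 266 CPM in sham and 82.5, 158 and 104 CPM in DOCA-salt mice. These values, all far below those of TAL and DCT cells, are read as background, and their difference did not pass the test (log2 -0.66, edgeR, adjusted p = 0.341). Over all cells of a mouse, Umod was 1314 ± 536 CPM in sham and 1170 ± 226 CPM in DOCA-salt mice (log2 -0.29, SE 0.31, edgeR, adjusted p = 0.558), where 3392 of 19658 genes (17.3%) were called.

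Egf fell in DCT cells. Sham mice had 1666, 2498 and 2050 CPM and DOCA-salt mice 848, 811 and 1029 CPM. The groups did not overlap, and the highest DOCA-salt mouse stood well below the lowest sham mouse. The fitted level in DOCA-salt mice was 0.390 times that of sham mice, a log2 fold change of -1.36 (SE 0.18, 95% interval -1.71 to -1.01, edgeR, adjusted p = 1.29e-04). The fall was larger at or below the Slc8a1 median (log2 -1.64) than above it (-1.10), and both were past the threshold, though the difference between these parts was not tested. It passed the test under every alternative that gave one, from -1.72 among cells with at most 20% mitochondrial UMIs to -0.70 in DCT and CNT cells pooled (highest adjusted p = 0.00934).

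Depth and mitochondrial content of DCT cells differed between the groups. The median over mice of each mouse's median depth was 5354 UMIs per cell in sham and 9861 in DOCA-salt mice. Medians per mouse were 31.8 to 34.0% mitochondrial UMIs in sham and 26.1 to 29.2% in DOCA-salt mice. At most 20% mitochondrial UMIs gave the larger fall named above, and cells of at least 1000 UMIs gave -1.37. The latter cut lies far below the median depths of both groups, so it does not even out the depth difference.

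The fall was also seen in the share of cells with the transcript. After thinning to 1000 UMIs, 60.6, 76.2 and 70.2% of sham DCT cells and 44.3, 42.8 and 50.0% of DOCA-salt DCT cells had an Egf UMI. The groups did not overlap (69.0 ± 7.82% against 45.7 ± 3.8%, exact permutation p = 0.1, the smallest possible, adjusted 0.2), while unthinned shares were 79.7 and 70.5%. In endothelial cells, which should lack Egf, the thinned shares were 4.94% and 2.56%, at median depths of 3736 and 6214 UMIs per cell. Among DCT cells with at least 1000 UMIs, not thinned, those with Umod but no Egf made up 3.03 to 10.9% in sham and 14.9 to 17.6% in DOCA-salt mice, 2 ranges that did not overlap. Cells with both made up 74.5 to 81.2% and 67.6 to 76.5%. Without thinning, 47.9% of sham and 43.7% of DOCA-salt endothelial cells also had a Umod UMI. A Umod UMI in an unthinned DCT cell can therefore be background, and these shares do not define a state of cells.

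TAL cells had higher Egf than DCT cells and a smaller difference between groups. Sham mice had 4972, 7194 and 5175 CPM and DOCA-salt mice 4772, 3661 and 4195 CPM. All DOCA-salt mice were below all sham mice, but only narrowly in the case of DOCA-salt 1 and sham 1. The log2 fold change of -0.46 (SE 0.17, 95% interval -0.78 to -0.13) did not pass the test (edgeR, adjusted p = 0.250), and it was -0.47 in Cldn16 and -0.39 in Cldn10 TAL cells. The thinned share of TAL cells with an Egf UMI was 89.9 ± 1.57% and 85.1 ± 2.82% (exact permutation p = 0.1, adjusted 0.2). Egf fell further in DCT than in TAL cells by 0.90 on the log2 scale (SE 0.10, edgeR interaction test, adjusted p = 2.12e-08), and the lowest and highest values without 1 mouse were -0.998 and -0.748.

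**Figure D3:**
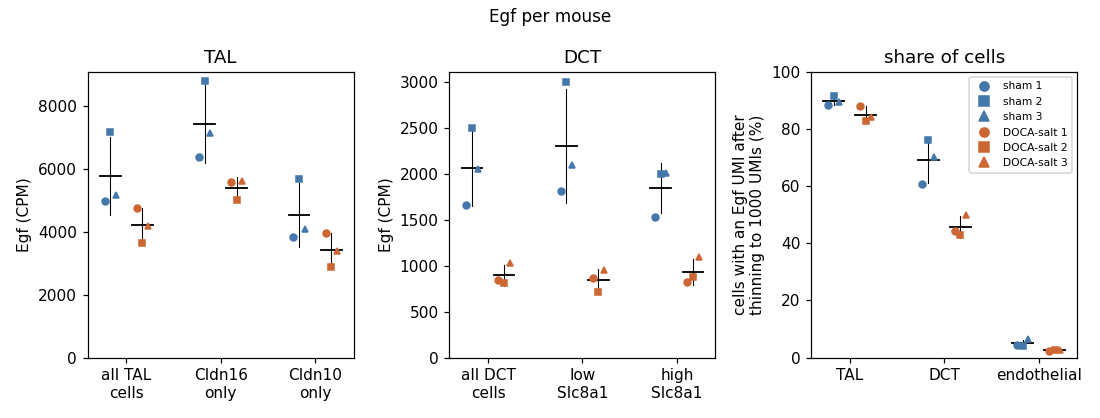
Egf per mouse (points), with the group mean and 1 SD: CPM in TAL cells and their parts by claudin, CPM in DCT cells and their parts by Slc8a1, and the percentage of cells with an Egf UMI after thinning to 1000 UMIs, with endothelial cells as background. In DCT cells the 3 DOCA-salt mice lie between 811 and 1029 CPM, below all sham mice, in both parts of the class as well.

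Over all cells, Egf was 416, 444 and 535 CPM in sham and 366, 287 and 281 CPM in DOCA-salt mice. The groups did not overlap, and Egf fell by 0.69 on the log2 scale (SE 0.16, edgeR, adjusted p = 0.0229). The call was lost without sham 3 (-0.57), DOCA-salt 2 (-0.62) or DOCA-salt 3 (-0.61), with an adjusted p of up to 0.101. Egf also fell where it was near background. Outside the tubule it was 46.8, 49.3 and 63.6 CPM in sham and 28.3, 28.6 and 23.9 CPM in DOCA-salt mice (log2 -0.99, edgeR, adjusted p = 0.00218, with 3044 of 15273 genes, 19.9%, called), and -0.22 with an adjusted p of 0.764 when doublets were kept. In CNT cells it was 30.6, 31.9 and 41.1 CPM against 16.6, 12.2 and 13.4 CPM (log2 -1.45, adjusted p = 5.64e-04, with 2315 of 9834 genes, 23.5%, called), below the level outside the tubule in both groups and so read as background. The CNT call was lost at Leiden resolution 2 (-0.40, adjusted p = 0.227) and among cells with at most 20% mitochondrial UMIs (-1.09, adjusted p = 0.054). PT cells had 35.3 ± 12.9 and 22.4 ± 2.85 CPM (log2 -0.72, edgeR, adjusted p = 0.111).

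Kl gave no call in the 2 classes where it was highest. In CNT cells, sham mice had 981, 1440 and 887 CPM and DOCA-salt mice 1230, 974 and 786 CPM. In DCT cells, sham mice had 764, 977 and 831 CPM and DOCA-salt mice 854, 826 and 1000 CPM. Both sets overlapped, and neither difference passed the test, with log2 fold changes of -0.30 in CNT cells (SE 0.20, 95% interval -0.70 to 0.09, edgeR, adjusted p = 0.318) and -0.09 in DCT cells (SE 0.16, interval -0.40 to 0.22, adjusted p = 0.808). Without sham 2 the CNT value was -0.098. The sign in DCT cells turned with the setting, to 0.062 with library size alone and to 0.37 among cells with at most 20% mitochondrial UMIs. The CNT change minus the DCT change was -0.19 (SE 0.16, edgeR, adjusted p = 0.543, with 1185 of 10465 genes, 11.3%, called). After thinning, 57.7 ± 7.92% of sham and 49.8 ± 7.97% of DOCA-salt CNT cells had a Kl UMI (exact permutation p = 0.3). In DCT cells the shares were 41.3 ± 3.89% and 49.5 ± 2.85%, which did not overlap (exact permutation p = 0.1, the smallest possible, adjusted 0.2). No order is read from them, because the fitted level did not pass the test and its sign turned between settings. In endothelial cells the thinned Kl share was 3.19 and 1.61%, at median depths of 3736 and 6214 UMIs. CNT cells made up 1.92 ± 0.50% of sham and 1.01 ± 0.18% of DOCA-salt cells as clustered, and 1.67 and 1.48% when barcodes were taken by marker UMIs, and since genes that define the class differed between groups these sizes are not compared.

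In PT cells, where Klotho transcript was low per cell, Kl was 175, 260 and 191 CPM in sham and 167, 152 and 178 CPM in DOCA-salt mice. Only DOCA-salt 3 reached into the sham range. The log2 fold change was -0.40 (SE 0.16, 95% interval -0.72 to -0.08, edgeR, adjusted p = 0.176), where 1047 of 16108 genes (6.5%) were called, 719 higher and 328 lower, or 914 higher and 247 lower with library size alone. Kl in PT cells was -0.20 without sham 2 and -0.21 among cells with at most 20% mitochondrial UMIs. The PT change minus the DCT change was -0.30 (SE 0.12, edgeR interaction test, adjusted p = 0.121, with 1493 of 15883 genes, 9.4%, called), and -0.37 with library size alone (adjusted p = 0.0264). After thinning, 17.4 ± 3.12% of sham and 14.1 ± 1.25% of DOCA-salt PT cells had a Kl UMI (exact permutation p = 0.2, adjusted 0.3).

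In TAL cells Kl was 160, 227 and 154 CPM in sham and 128, 103 and 113 CPM in DOCA-salt mice, which did not overlap. It fell by 0.65 on the log2 scale (SE 0.14, edgeR, adjusted p = 0.0495), a call at the edge of the threshold that was lost in 9 of 16 alternatives, among them leaving out any mouse other than sham 2 (-0.72 to -0.59). The 5 CNT markers summed to 2635 to 3334 CPM in sham and 1819 to 2022 CPM in DOCA-salt TAL cells, with 0 of 4 tested higher and 1 lower and 1 marker at 0 in a sham mouse. Of the 5, Slc8a1 was 19.8 to 29.8 CPM in sham and 36.0 to 45.4 CPM in DOCA-salt mice, without overlap. Calb1, S100g and Trpv5 overlapped between the groups. These 4 genes were each at most 244 CPM, so most of the sum was Klk1, the remaining marker. The part of the CNT markers in the difference was not tested. Outside the tubule, where Klotho is not known to be made, Kl was 28.4, 28.1 and 28.0 CPM in sham and 15.7, 12 and 21.7 CPM in DOCA-salt mice (log2 -0.78, edgeR, adjusted p = 0.0249), and the difference was -0.032 when doublets were kept. This call was also lost without sham 1 (-0.78), sham 3 (-0.74), DOCA-salt 1 (-0.72) or DOCA-salt 2 (-0.56), with an adjusted p of up to 0.0893.

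Principal cells of the collecting duct gave the only call of higher Kl among the 12 classes in which it passed the filter on low counts. Sham mice had 57.0, 90.4 and 78.6 CPM, from 150 to 197 UMIs per mouse, and DOCA-salt mice 378, 386 and 312 CPM, from 609 to 943 UMIs. The groups lay far apart, with a fitted ratio of 4.93 (log2 2.30, SE 0.18, 95% interval 1.95 to 2.65, edgeR, adjusted p = 6.23e-05), where 759 of 10680 genes (7.11%) were called. Some CNT markers moved with it. In the principal class, Slc8a1 was 351 to 445 CPM in sham and 831 to 1227 CPM in DOCA-salt mice, Trpv5, the apical calcium channel of the late DCT and CNT, was 11 to 13.8 and 33.8 to 87.2 CPM, and the 5 CNT markers summed to 999 to 1300 and 1574 to 2269 CPM, with 2 of 5 higher, 1 lower and none at 0. The CNT markers Calb1, at 402 to 583 and 478 to 737 CPM, and S100g, a cytosolic calcium buffer, at 142 to 251 and 105 to 340 CPM, overlapped between the groups. Aqp2, the water channel that defines principal cells, was 6862 to 8179 and 5754 to 7986 CPM. Aqp3, a basolateral water channel, was 1648 to 2004 and 815 to 1063 CPM, and the 8 principal cell markers summed to 19146 to 20775 and 16452 to 18595 CPM, neither of which overlapped, with 1 of 8 higher, 2 lower and none at 0. Some injury genes rose in this class as well. Among them Spp1, which encodes osteopontin, was 232 to 406 CPM in sham and 2572 to 3905 CPM in DOCA-salt mice, and Krt19 4.59 to 8.95 and 88.5 to 209 CPM. Spp1 was also higher outside the tubule, at 109 to 164 and 1328.5 to 2985 CPM, and in PT cells, at 458 to 1035 and 2583 to 4813 CPM. Krt19 outside the tubule was 0 to 1.18 and 0.362 to 0.956 CPM. The part of these markers in the Kl difference was not tested.

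The CNT class shifted at the same time. Its Aqp2 was 1306 to 1388 CPM in sham and 214 to 261 CPM in DOCA-salt mice, and its Slc8a1 was 6259 to 8624 and 11527 to 14860 CPM. Slc8a1 was the only one of the 5 CNT markers called higher there, while 3 were lower. S100g was 18130 to 29286 and 8873 to 13164 CPM, Trpv5 532 to 676 and 309 to 391 CPM, and the sum of the 5 markers 42157 to 56404 and 26107 to 32662 CPM. Slc12a3 of the DCT was 9.98 to 76.0 and 184.5 to 533 CPM in the CNT class, and the 7 DCT markers summed to 480 to 510 and 698 to 1178 CPM. All 7 principal cell markers tested there were lower. With the CNT and principal classes pooled, Kl ranged from 369 to 641 CPM in sham and from 452 to 735 CPM in DOCA-salt mice, which overlapped (log2 0.27, edgeR, adjusted p = 0.458). CNT cells, the richer in Kl, were 521 of the 1247 pooled cells in sham and 282 of 788 in DOCA-salt mice. The part of these shifts in the principal class difference was not tested.

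**Figure D4:**
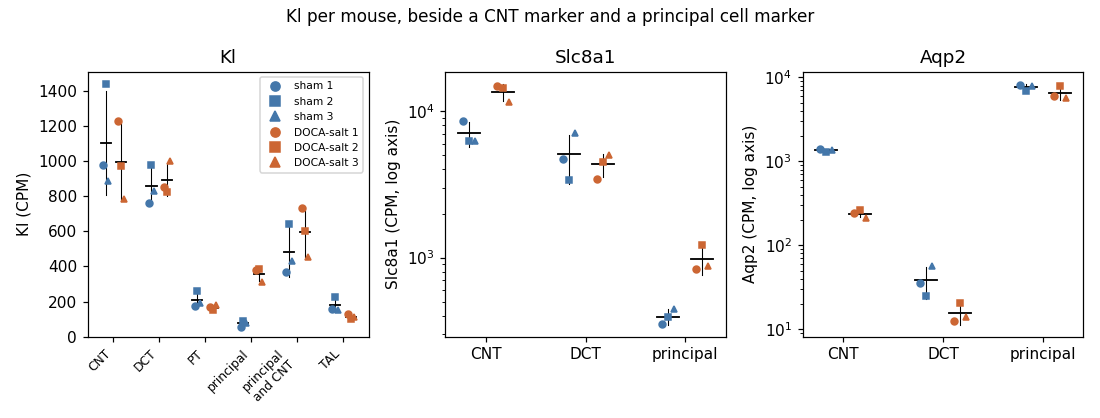
Kl in CPM per mouse (points), with the group mean and 1 SD, in 6 sets of cells on an axis that starts at 0, beside Slc8a1 and Aqp2 in CNT, DCT and principal cells on log axes. Kl is higher in DOCA-salt principal cells (312 to 386 CPM) than in sham ones (57.0 to 90.4 CPM), as is Slc8a1, and the groups overlap in the pooled principal and CNT cells.

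Over all cells Kl was 169, 249 and 190 CPM in sham and 182, 157 and 169 CPM in DOCA-salt mice, overlapping ranges (log2 -0.38, SE 0.15, edgeR, adjusted p = 0.127, and -0.22 without sham 2).

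**Figure D5:**
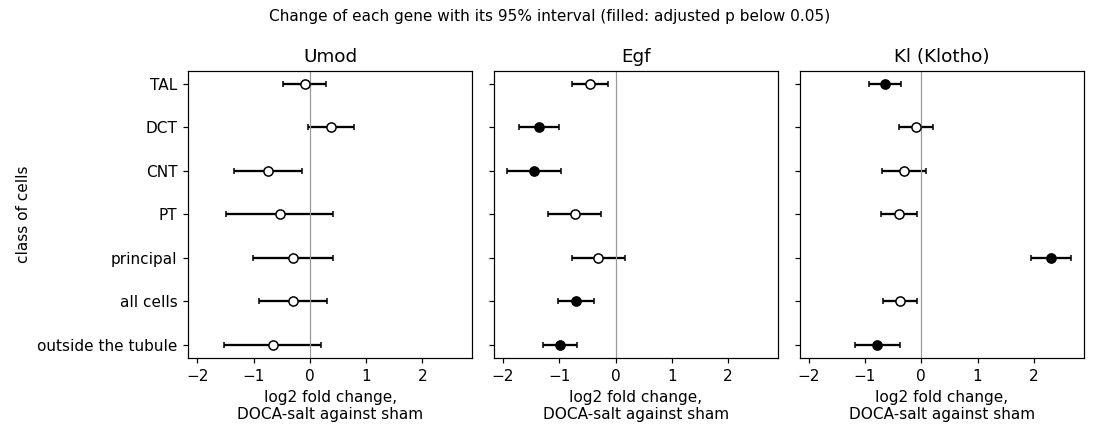
Log2 fold change of Umod, Egf and Kl in DOCA-salt against sham mice, with its approximate 95% interval, in 7 sets of cells (3 mice per group, filled points at an adjusted p below 0.05 in edgeR's quasi-likelihood test). Egf lies at -1.36 in DCT cells against -0.46 in TAL cells, Kl at 2.30 in principal cells, and Umod intervals include 0 except in CNT cells, where its adjusted p was 0.0972.

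The genes that act with the 3 members were counted in 5 lists, without the members, and each count is set beside the share of all genes tested in that class. In TAL cells 0.698% of all genes were higher and 0.822% lower, in DCT cells 4.61% and 3%, and in PT cells 4.46% and 2.04%. Of 29 tested genes of the TAL and uromodulin list in TAL cells, 1 was higher and none was lower, near the share over all genes (median log2 0.0087, against -0.0025 over all genes). Markers that named the class, Slc12a1 among them, are part of this list. The gene that rose was Hspa5, the endoplasmic reticulum chaperone BiP, from 221 ± 24.0 to 421 ± 78.5 CPM (log2 0.93, edgeR, adjusted p = 0.00831). Slc12a1 stood at 7701 ± 965 and 8000 ± 252 CPM (log2 0.052, adjusted p = 0.932). Of the injury list, 2 of 9 tested genes rose in TAL cells, against 0.698% of all genes, namely Lcn2, a secreted lipocalin of injured tubules, from 5.62 to 43.9 CPM and the small heat shock protein Cryab from 68.4 to 129 CPM.

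In DCT cells, where Egf fell, 4 of 16 tested genes of the EGF list rose and none fell, against 4.61% higher and 3% lower over all genes (median log2 0.24, against -0.01 over all genes). The largest rises were those of other ligands of the family. Nrg1, a ligand of Erbb3 and Erbb4, went from 42.8 ± 12.7 to 311 ± 96.4 CPM (log2 2.68, edgeR, adjusted p = 2.27e-06). Hbegf, which like Egf binds Egfr, went from 44.5 ± 1.67 to 199 ± 15.3 CPM (log2 2.00, adjusted p = 7.32e-07). Egfr itself rose from 26.0 ± 6.00 to 50.2 ± 11.3 CPM (log2 0.77, adjusted p = 0.0438). Erbb4, at 417 and 780 CPM, rose as well, and Trpm6 was 672 ± 106 and 552 ± 72.4 CPM (log2 -0.44, adjusted p = 0.154); these 2 genes were named after their values were seen. In TAL cells 0 of 16 genes of the EGF list were called by edgeR.

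Of 16 DCT-list genes, 5 fell in DCT cells and none rose, against 3% of all genes lower (median log2 -0.35). The list holds the 7 markers that named the class, and 4 of these 7 fell, namely Klhl3, Pvalb, Emx1 and Slc12a3. The count is therefore not separate from the choice of cells. Klhl3 fell from 785 ± 77.5 to 400 ± 25.8 CPM (log2 -1.12, edgeR, adjusted p = 2.53e-04), Pvalb, a calcium buffer of the early DCT, from 622 to 412 CPM (log2 -0.74) and the transcription factor Emx1 from 240 to 164 CPM (log2 -0.69). Slc12a3 fell from 7261 ± 736 to 5244 ± 361 CPM (log2 -0.62, adjusted p = 0.0316). The log2 fold change of Egf, -1.36, was larger than those of the 5 DCT-list genes called, a difference that was not tested. Of the injury list, Tnfrsf12a, the receptor of the cytokine TWEAK, was 9.57 ± 3.60 CPM in sham and 62.7 ± 11.6 CPM in DOCA-salt DCT cells (log2 2.56). Lcn2 was at 0.72 and 57.2 CPM and the keratin Krt19 at 0.40 and 9.94 CPM. Both were near 0 in sham mice and could enter the test only through the DOCA-salt group, so no count of the list is given for DCT cells, and none for PT, CNT and principal cells for the same reason.

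Of 14 tested genes of the Klotho list, 1 rose and 3 fell in DCT cells, against 4.61% and 3% of all genes (median log2 -0.17). Egr1, an immediate early gene that FGF23 signalling is known to induce, rose from 253 to 637 CPM (log2 1.18, edgeR, adjusted p = 0.00200). Calb1, the calcium carrier of the DCT and CNT, fell from 2572 ± 460 to 1507 ± 248 CPM (log2 -0.93) and Vdr from 206 to 156 CPM (log2 -0.56). The third fall was that of Slc34a1, the proximal phosphate transporter, from 386 to 205 CPM (log2 -1.09), and the 15 PT markers summed to 1604 to 5317 CPM in sham and 1314 to 2065 CPM in DOCA-salt DCT cells, whose part in it was not tested. In TAL cells Vdr was the 1 of 16 genes called, from 82.1 to 51.4 CPM (log2 -0.67, adjusted p = 0.0277). In PT cells 1 of 18 rose, the calcitriol-making enzyme Cyp27b1, from 3.07 to 7.39 CPM (log2 1.21, adjusted p = 0.00915), and 1 fell, Egr1, from 78.7 to 61.6 CPM (log2 -0.42). In TAL cells 2 of 15 DCT-list genes fell, Wnk1 (log2 -0.97) and Klhl3 (-0.64). In DCT cells the TAL list was mixed, with Hspa5 and Esrrg higher and 4 of 26 genes lower, among them Slc12a1, Cldn10 and Ppargc1a. Cldn19, at 4.42 CPM in sham and 20.8 CPM in DOCA-salt mice, could enter the test only through the DOCA-salt group. No count of higher genes is therefore given for this list. In PT cells, 1 of 29 TAL-list genes (Hspa5), 1 of 17 EGF-list genes (Erbb4) and 0 of 16 DCT-list genes were called, where 6.5% of all genes were. The injury genes Sox9, Vcam1 and Havcr1 stood at 0.16, 0.82 and 0.34 CPM in sham and 3.65, 7.59 and 3.08 CPM in DOCA-salt PT cells. Counts in principal and CNT cells were added after their values were seen. Of the Klotho list, 4 of 12 tested genes were higher and 1 lower in principal cells, against 3.97% and 3.14% of all genes, and 3 of 13 higher and 5 lower in CNT cells, against 12% and 11.5%. These counts include the CNT markers Slc8a1 and Trpv5. The sham and DOCA-salt libraries are shared by all these comparisons.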

How the data were processed

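The authors deposited counts: raw UMIs per gene and barcode of 10x 3′ libraries aligned to GRCm39 with Cell Ranger (9.0.0 in their processing notes, where Seurat 4.0.0 and R 4.0.3 are also listed; another release stands in the file headers). The annotation release is not given in the sources used here. Counts were not corrected for free RNA. The group of each mouse came from the sample titles. The members and all lists were chosen with earlier results of these data known.

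From 76774 barcodes, 60561 were kept with 170 genes, 500 UMIs or more, and no more than 50% of UMIs from mitochondria or 5% from hemoglobin genes. Scrublet scores replaced the authors' doublet caller and removed 4931 barcodes (0.8% per 1000 barcodes), and 37 Leiden clusters (scanpy 1.11.5, 2000 variable genes, 30 components, no batch integration) were named from fixed markers, so classes may differ from the authors'. UMIs per mouse and class were tested with edgeR 4.0.16 in R 4.3.3 (filterByExpr, TMM, quasi-likelihood F test, Benjamini-Hochberg adjustment over all genes, threshold 0.05), and an approximate 95% interval was taken from the SE. Each group had 3 mice, the replicates. A median depth given for a group is the median over its mice of each mouse's median. Interactions took mouse as a block. Tested on simulated counts, the fit recovered 86.5% of 200 changed genes for TAL, 81.5% for DCT, 83.5% for PT and 83.5% for all cells (79, 66, 70 and 69% of those changed 2-fold), with 18 false of 191 calls, 9 of 172, 13 of 180 and 20 of 187. In each set the false share of calls was above the threshold of 0.05, so calls near the threshold, such as Kl in TAL cells, are less sure. The spread of the simulated counts was estimated from these same data. Shares, orders and parts were tested by exact permutation or sign-flip tests (scipy 1.17.1). No column of per-sample values was left unused.

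Genes other than the members came from lists of TAL and uromodulin, EGF, Klotho, DCT and injury genes: the 3 largest rises and 3 largest falls past the threshold per list and class, with Slc12a1 and Slc12a3 always, and the 5 genes most like each member among those of at least 50 CPM in 1 class. Alternatives were DESeq2 1.42.0, other scalings, no filter, leaving out each mouse, a replicate block, at most 20% mitochondrial UMIs, kept doublets, Leiden resolution 2, classes from marker UMIs, cells of at least 1000 UMIs and other thinning. The alternatives for Kl in principal and TAL cells, Egf and Kl outside the tubule, Egf in CNT cells, the parts of the DCT, its pooling with CNT cells for all 3 genes and the subtraction of background for Umod in DCT cells were chosen after seeing the data.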

Additional observations from a re-analysis of the deposited data

Results flagged for a closer look

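The change of Umod differed between DCT and TAL cells by an interaction test in edgeR: the DCT change minus the TAL change was 0.43 on the log2 scale (adjusted p = 0.0302), where neither change passed the test in its own class. Among cells with at most 20% mitochondrial UMIs the 2 changes were 0.74 and 0.62. The call was lost without sham 3 (0.19), DOCA-salt 2 (0.34) or DOCA-salt 3 (0.34), with an adjusted p of up to 0.300. The change of Egf differed between the same classes, with a DCT change minus TAL change of -0.90 (adjusted p = 2.12e-08).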

How the results depend on the processing

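Of 333 values under other settings, 291 kept their direction, 28 lost and 3 gained significance and 11 turned sign. The 291 also kept their side of the threshold, except for shares and background-subtracted values, for which no side was compared. A further 48 values are counts of genes called, of which 26 moved by over 1.5 times. Egf in DCT cells kept its direction and its call in every alternative that gave a test. Its difference from TAL cells kept both in all 7 of its alternatives, which were library size alone and leaving out each mouse. That difference was not fitted under other choices of cells. With at most 20% mitochondrial UMIs the log2 change turned to 0.62 for Umod in TAL cells, 0.37 for Kl in DCT cells and 0.34 for Umod over all cells. Kl in DCT cells was 0.062 with library size alone and 0.081 after subtraction of the level outside the tubule, and in CNT cells 0.069 with barcodes taken by markers. Umod outside the tubule became 0.32 with doublets kept, and its share of TAL cells without thinning differed by -0.45 points. Pooling with CNT cells gave 0.95 for Umod in DCT cells (edgeR, adjusted p = 0.0298). CNT cells, low in Umod at 171 CPM in sham and 115 CPM in DOCA-salt mice, were 521 of 1252 pooled cells in sham and 282 of 1218 in DOCA-salt mice. The part of this shift in the pooled value was not tested. Kl in principal cells kept its direction and its call in 16 of 18 alternatives. It was 2.12 to 2.45 when 1 mouse was left out (edgeR, highest adjusted p = 4.64e-04). Pooling principal with CNT cells gave 0.27 for Kl, and principal cells without CNT marker UMIs gave 0.42. The latter does not compare like cells, since 75 DOCA-salt cells with 13 Kl UMIs stood against 109 sham cells. Their depths, as the median over mice of each mouse's median, were 901.5 and 7354 UMIs. Kl in TAL cells lost its call with library size alone (-0.65), doublets kept (-0.61) and Leiden resolution 2 (-0.65), and the PT minus DCT change of Kl gained one with library size alone (-0.37). Causes were not tested.

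Leaving out 1 mouse gave -0.26 to 0.059 for Umod in TAL cells, -0.72 to -0.49 for Kl in TAL cells, -0.59 to 0.022 for Umod and -0.84 to -0.57 for Egf over all cells, -1.04 to -0.20 for Umod outside the tubule, 0.19 to 0.60 for the DCT minus TAL change of Umod and -0.43 to 0.014 for the CNT minus DCT change of Kl. Umod outside the tubule was -1.04 without sham 2 (adjusted p = 0.0105). Genes called ranged from 49 to 712 in TAL cells (main 185), 377 to 1233 in DCT cells (766) and 256 to 2570 in PT cells (1047), highest without sham 2 in each. Without a filter on low counts 644 genes were called in TAL and 1165 in DCT cells, with barcodes taken by markers 418 and 388, and in PT cells 1653 by DESeq2 and 1840 at Leiden resolution 2.

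The replicate numbers did not pair the mice, as same-numbered mice had correlations of their deviations from -0.41 to 0.017. With the number as a replicate block, 43 genes were called in TAL, 373 in DCT and 236 in PT cells, Kl in TAL cells was -0.64 and Egf over all cells -0.70, both no longer called. Counts of the 3 members were high in their main classes, while levels outside the tubule rested on background.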

Other observations

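A small urothelial-like class, named from uroplakins and held out of the comparisons because sham mice had only 10, 1 and 8 cells in it against 30, 31 and 23 in DOCA-salt mice, carried Umod. Its level was 429, 0 and 1366 CPM in sham mice, from 70, 0 and 147 UMIs, and 4454, 3321 and 2158 CPM in DOCA-salt mice, from 3117, 2440 and 754 UMIs. Slc12a1 of the TAL was 0 to 1599 and 1369 to 2381 CPM there, Upk3a, a uroplakin of the bladder and pelvic lining, 2308 to 3727 and 440 to 947 CPM, and Spp1, which encodes osteopontin, 859 to 4163 and 19830 to 37212 CPM. The part of these markers in the Umod values was not tested.

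Egf was also called higher in cycling cells, with 23.7 ± 5.97 CPM in sham and 68.9 ± 11 CPM in DOCA-salt mice (log2 1.5, edgeR, adjusted p = 0.0213). Umod in the same cells was 105 ± 56.9 and 344 ± 89.7 CPM (log2 1.64, adjusted p = 0.0805), and Kl 159 and 161 CPM. In the same cells Slc12a1 of the TAL was 27.1 to 35.1 CPM in sham and 101 to 170 CPM in DOCA-salt mice, Slc12a3 of the DCT 8.12 to 22.7 and 28.7 to 97.8 CPM, and the 8 TAL markers summed to 223 to 372 and 360 to 500.2 CPM. The unthinned share of cycling cells with an Egf UMI was 15.6 and 16.3%, and 3.00 and 3.39% after thinning to 1000 UMIs, and the part of these markers in the Egf values was not tested. In T or NK cells Umod was 278 ± 110 and 129 ± 21.5 CPM (log2 -1.14, edgeR, adjusted p = 0.0387, with 120 of 6716 genes, 1.79%, called). Egf was also called lower in endothelial cells, at 55.4 and 21.6 CPM (log2 -1.35, edgeR, adjusted p = 8.83e-04, with 11.4% of genes called). In intercalated cells it was 33.4 and 20.1 CPM (log2 -0.69, edgeR, adjusted p = 0.0416, with 6.43% called). All 3 levels are read as background.

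An unnamed cluster with 624 of its cells in DOCA-salt 2 and 3 to 25 in each other mouse held 1687 CPM of Umod, 282 CPM of Egf and 169 CPM of Kl in DOCA-salt 2.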
